A study of Mus musculus with 2 samples.

Results

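Stefins and cystatins are proteins that bind in the active-site cleft of papain-type cysteine proteases, the cathepsins, and block them. Stefins (Stfa1, Stfa2, Stfa3, Csta and Cstb) lack a signal peptide and act inside the cell, whereas cystatin C (Cst3) and cystatin E/M (Cst6) are secreted. Secreted cystatins, Cst6 among them, can also inhibit legumain. In the mouse the stefin A genes form a tandem family on chromosome 16 whose members are expressed in stratified epithelium and in neutrophils, and human cystatin A is a component of the cornified envelope of keratinocytes. The 7 genes described here were taken by name from the 27827 named genes of a whole mouse genome array, which gave 10 of its 41174 probes. The family was chosen by measured values of these same arrays, the log2 ratios of Stfa1 and Csta, so that the log2 ratios of its members are given as a description and carry no test.

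RNA came from prostaspheres, balls of prostate epithelial cells grown in three-dimensional culture, with dihydrotestosterone in the medium. Labels give the cells as urogenital sinus epithelium harvested at 16 dpc, while the methods of the study describe prostaspheres of adult prostate tissue, and the number of animals behind each RNA is not given. In ER-Sox9flox/flox cells both Sox9 alleles are floxed and Cre is fused to the estrogen receptor at the ubiquitously active Rosa26 locus, so that tamoxifen (TAM) removes Sox9, and the wild-type C57/Bl6J cells have neither change. Exposure to 5 μM TAM or vehicle lasted 6 days after 6 days of culture. The genotype array held Cy5-labeled RNA of wild-type cells given TAM and Cy3-labeled RNA of ER-Sox9flox/flox cells given TAM. The treatment array held ER-Sox9flox/flox RNA on both sides, from cells given vehicle in Cy5 and from cells given TAM in Cy3. The genotype label is Sox9 null on both sides of the treatment array, so the treatment label separates them. Source names in the labels give SOX9 for the Cy5 side and Ctrl for the Cy3 side of each array. Taken as the deletion and its control, they would reverse all signs, and the titles, genotypes and treatments were followed instead. Under that reading a positive log2 ratio means more signal in the Sox9-expressing RNA. The Sox9-expressing RNA was Cy5 on both of the 2 arrays and the dyes were not swapped. Dye bias and the response to Sox9 therefore cannot be told apart. Cre activity moved with Sox9 loss on both arrays, together with genotype on the genotype array and with TAM on the treatment array.

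Among the 3 Sox9 probes, 2 were brighter in the Sox9-expressing RNA on both arrays, the brightest with a mean log2 ratio of 2.53 ± 0.23 (SD, n = 2 arrays), and 1 was dimmer on both. The epithelial genes Epcam, Cdh1, Krt8 and Krt18 were well above background in all 4 RNAs. Between 22184 and 23150 probes were well above background in an RNA, and no gene spot was saturated. A probe was tested when both Sox9-expressing or both Sox9-deleted RNAs, or more, were well above background, which left 22731 probes. Arrays have no read depth, and the number of arrays limits the precision.

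Among the 7 genes, Stfa1, Stfa2, Stfa3 and Csta have their probes within chr16:36122294-36450752 of mm9, the build named in the file headers. The probe of Stfa1 lies at chr16:36285323-36285382 on the plus strand. That of Stfa3 lies at chr16:36450693-36450752 and those of Csta at chr16:36122294-36122353 and chr16:36125099-36125158, all on the minus strand. The Stfa2 probe matches chr16:36405290-36408367 on the minus strand, an interval of 3078 bases for a probe of 60, so that its bases are interrupted by genomic sequence. Cstb (2 probes) lies on chromosome 10, Cst3 (1 probe) on chromosome 2 and Cst6 (2 probes) on chromosome 19. Genes of the cluster are near-identical copies, and several probes can bind more than one transcript. The array's own annotation lists, for the Stfa1 probe and for the first Csta probe, a transcript of BC100530 (current symbol Cstdc5) beside that of the named gene (Csta is now Csta1). The probes that show this are given here 5′ to 3′ as the scanner files list them, with capitals for the longest run of 12 or more bases shared with the BC100530 probe, or for BC100530 itself with the first Csta probe. For the first Csta probe the shared stretch alone is printed.
BC100530: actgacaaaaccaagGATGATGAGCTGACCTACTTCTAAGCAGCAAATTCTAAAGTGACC
Csta first probe, shared stretch: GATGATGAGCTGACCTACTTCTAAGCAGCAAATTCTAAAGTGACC
Stfa1: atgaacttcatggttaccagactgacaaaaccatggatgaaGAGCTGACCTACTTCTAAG
Stfa3: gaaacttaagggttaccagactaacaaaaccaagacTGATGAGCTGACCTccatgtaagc
Csta second probe: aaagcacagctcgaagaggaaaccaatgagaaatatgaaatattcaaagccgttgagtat
Stfa2: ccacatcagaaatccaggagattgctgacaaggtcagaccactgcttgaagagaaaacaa

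The first Csta probe and the BC100530 probe were identical over a run of 45 bases. The Stfa1 probe matched the BC100530 probe at 38 of 40 overlapping bases, and the Stfa3 probe matched it at 35 of 41. By contrast, the second Csta probe and the Stfa2 probe shared no run longer than 7 bases with it. The Stfa3 probe also matched the Stfa1 probe at 47 of 59 overlapping bases. Probes of the cluster outside the list shared runs too. That of 2010005H15Rik shared a run of 25 bases with the first Csta probe and matched it at 39 of 43 overlapping bases. That of EG433016 shared a run of 21 bases with the Stfa1 probe and of 22 with the Stfa3 probe. The low signal of these probes outside the list is given below. Signal of Stfa1, of Stfa3, of BC100530 and of the first Csta probe therefore cannot be assigned to 1 transcript each. The second Csta probe and the Stfa2 probe are the most distinct of the set by the run shared with BC100530.

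Stfa1 gave the widest separation in the family. Its normalized brightness was 1556 in wild-type cells with TAM and 2441 in ER-Sox9flox/flox cells with vehicle, against 344 and 273 in the ER-Sox9flox/flox cells with TAM of the genotype and treatment arrays. Both Sox9-expressing RNAs were brighter than both Sox9-deleted RNAs. The log2 ratio was 2.18 on the genotype array and 3.16 on the treatment array, with a mean of 2.67 ± 0.70 (SD, n = 2 arrays), or 6.36-fold.

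Csta, the mouse ortholog of cystatin A, separated the same RNAs on its first probe. That probe read 6809 in wild-type cells with TAM and 11784 in cells with vehicle, and 2295 and 2129 in the 2 Sox9-deleted RNAs. Its log2 ratios were 1.57 and 2.47, with a mean of 2.02 ± 0.64 (SD, n = 2 arrays). On the second Csta probe, the one that shares little sequence with BC100530, brightness was 229.6 and 484 in the Sox9-expressing RNAs and 188 and 186 in the deleted RNAs. Those groups did not overlap either, but the difference on the genotype array was small, with a log2 ratio of 0.29 against 1.38 on the treatment array and a mean of 0.83 ± 0.78 (SD, n = 2 arrays). The 2 probes of Csta thus disagreed on whether the gene was 2-fold higher on both arrays.

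BC100530, which is outside the list of 7 but in the same cluster, was 4471 in wild-type cells with TAM and 7369 in cells with vehicle, against 1375 and 1219 in the deleted RNAs. Its log2 ratios of 1.70 and 2.60 lay close to those of the first Csta probe, with which it shares most of its sequence.

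Stfa3 was dim but well above background in all 4 RNAs. It read 226 in wild-type cells with TAM and 348 in cells with vehicle, and 132 and 104 in the deleted RNAs. Its log2 ratio was 0.78 on the genotype array and 1.74 on the treatment array (mean 1.26 ± 0.68, SD, n = 2 arrays). An offset of 50 added before the logarithm holds down the ratios of dim probes, and with an offset of 10 the mean of Stfa3 was 1.78.

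Stfa2 was at the edge of detection. Brightness was 105.4 in wild-type cells with TAM and 124 in cells with vehicle, both well above background, and 95.2 and 92.5 in the deleted RNAs, neither well above background. From the means of log2 brightness the Sox9-expressing RNAs were 1.22-fold higher, a value left uncertain by the deleted RNAs at background. It is no lower bound, since both deleted readings already lay above the dimmest level called well above background on their array. Stfa2 is also the member whose ratio depended most on the processing, with a mean log2 ratio of 0.29 here and 2.88 with the scanner software's own processed signals.

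**Figure D1:**
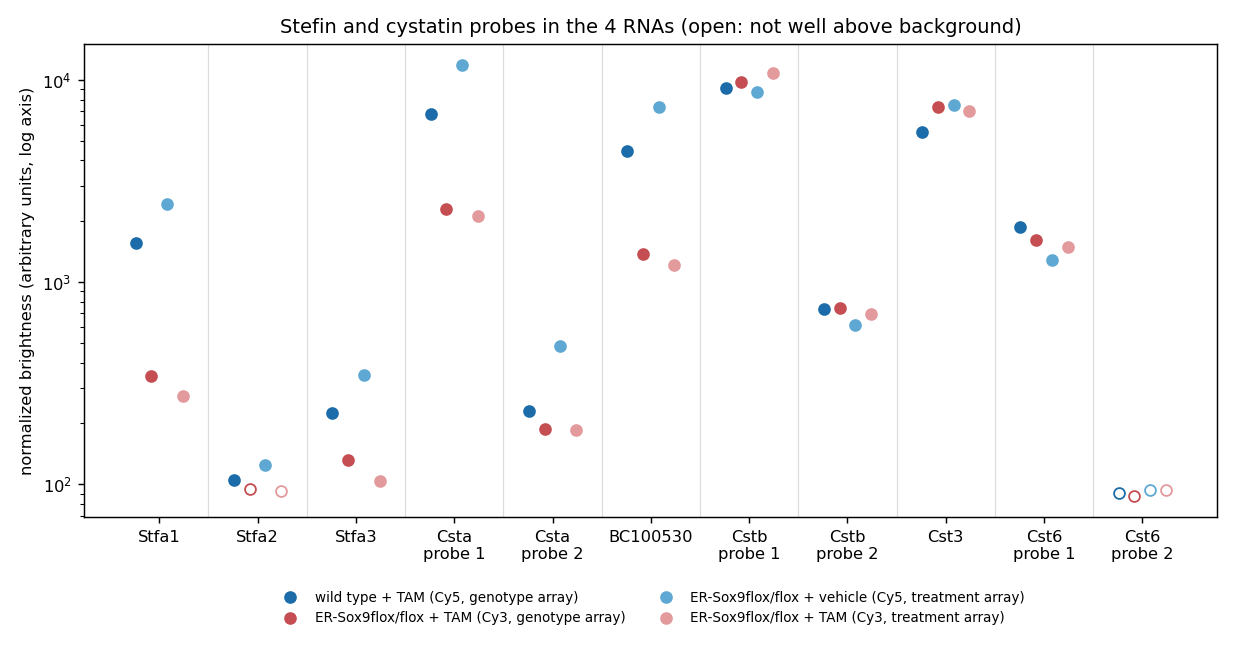
Normalized brightness (arbitrary units, log axis) of the member probes and of BC100530 in the 4 RNAs, 1 point per RNA, with open points where the probe was not well above background. Blue points (Sox9-expressing, Cy5) lie above red points (Sox9-deleted, Cy3) for Stfa1, Stfa2, Stfa3, both Csta probes and BC100530, and the order differs for Cstb, Cst3 and Cst6; heights of different probes are not comparable.

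The members outside chromosome 16 had log2 ratios nearer to 0. Cstb, a stefin present in most cell types, read 9083 and 8718 in the Sox9-expressing RNAs and 9794 and 10794 in the deleted RNAs on its brighter probe. Its log2 ratios were -0.11 and -0.31, with a mean of -0.21 ± 0.14 (SD, n = 2 arrays), and this direction turned to 0.23 when the arrays were centred on their medians in place of loess. Its second probe gave a mean of -0.10 ± 0.11 (SD, n = 2 arrays).

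Cst3 read 5551 in wild-type cells with TAM and 7523 in cells with vehicle, and 7374 and 7040 in the deleted RNAs, so that the groups overlapped. The log2 ratio of Cst3 was -0.41 on the genotype array and 0.10 on the treatment array (mean -0.16 ± 0.36, SD, n = 2 arrays). Cst6, whose loss in mice disturbs cornification of the skin, read 1866 and 1284 in the Sox9-expressing RNAs and 1623 and 1484 in the deleted RNAs on its brighter probe. Its log2 ratios of 0.20 and -0.21 opposed each other (mean 0.00 ± 0.29, SD, n = 2 arrays), and its second probe was not well above background in any RNA.

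Of the 10 member probes, 9 passed the filter on dim probes, that of Stfa2 through its Sox9-expressing RNAs alone. Of these 9, 2 (Stfa1 and the first Csta probe) were at least 2-fold higher in the Sox9-expressing RNA on both arrays, beside 0.290% of the 22731 tested probes, and none was at least 2-fold lower, beside 0.128%. The genes nearest to this limit were Csta inside it, with a smaller log2 ratio of 1.57, and Stfa3 outside it, with 0.78. The Sox9-expressing RNAs were both brighter than the deleted RNAs for 5 of the 9 probes, beside 26.9% of tested probes, and both dimmer for 1, beside 25.0%. Since Stfa1 and Csta led to the choice of the family and their probes share sequence with others, these counts are no support for a family-wide change. Over the 7 genes, each by its brightest probe, the median mean log2 ratio was 0.29, against 0.00 over 15123 tested genes. That median is the value of Stfa2, a dim probe, and since Stfa1 and Csta led to the choice it is no support either.

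**Figure D2:**
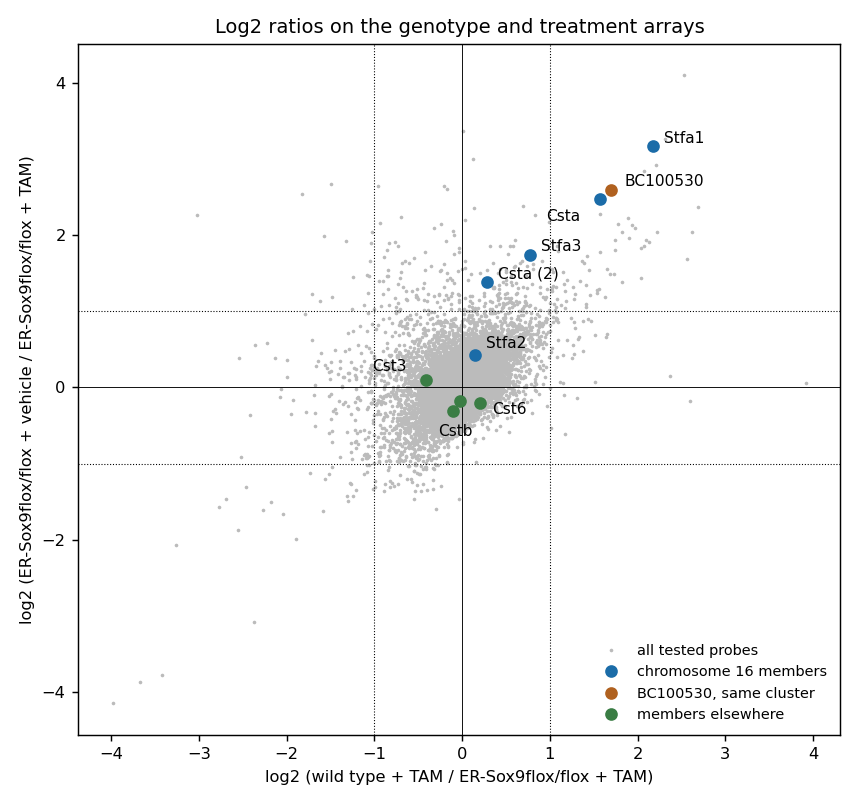
Log2 ratio on the genotype array (horizontal) against the treatment array (vertical) for all 22731 tested probes (gray) and for the tested probes of the 7 genes and BC100530; dotted lines mark 2-fold. Stfa1, Csta and BC100530 lie beyond 2-fold on both arrays, Stfa3 and the second Csta probe on the treatment array alone, and Cstb, Cst3 and Cst6 near 0.

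All 5 tested cluster probes of the list, and BC100530, had the larger log2 ratio on the treatment array. Several of them share sequence, so they are not separate readings. Over tested probes the ratio on the treatment array minus that on the genotype array ran from -0.31 to 0.55 (5th to 95th percentile). EG627962, a tested probe of the same interval, had the opposite order, with 0.20 on the genotype array and 0.02 on the treatment array. For Stfa1 the gap between arrays was already present between the 2 Sox9-expressing RNAs, since vehicle-treated cells were 0.65 (log2) above wild-type cells with TAM. The same difference was 0.79 on the first Csta probe, 1.08 on the second, 0.63 for Stfa3, 0.72 for BC100530 and 0.24 for Stfa2, where the middle 90% of tested probes (5th to 95th percentile) ran from -0.34 to 0.52, so that Stfa2 alone of these lay inside that range. These 2 RNAs differ in genotype, TAM and array, and the parts of the 3 cannot be told apart. The Sox9-deleted RNAs, alike in genotype and treatment, were 0.34 lower on the treatment array for Stfa1 (273 against 344) and for Stfa3 (104 against 132), while the 5th percentile over tested probes was -0.20. On the first Csta probe the deleted RNAs differed by -0.11 and on the second by -0.02, inside that range.

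The rest of the cluster was mostly silent on this array. Of the 8 probes of the interval not named for a member, 5 were not well above background in any RNA. Among them were those of Stfa2l1, EG433016 (current symbol Cstdc4) and EG209324 (a probe whose annotation lists Cstdc3). For the Stfa2l1 probe the array's annotation also lists a transcript of the member Stfa2. 2010005H15Rik, now Csta2, was well above background on the treatment array alone, where it read 111 with vehicle and 96.3 with TAM. The probe named EG627962 measured 230.1 and 215 in the Sox9-expressing RNAs and 201 and 213 in the deleted RNAs, with a mean log2 ratio of 0.11 ± 0.13 (SD, n = 2 arrays). Higher signal with Sox9 was thus read by some probes of the cluster while other probes of the same interval were at background.

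Promoters of the cluster were compared because their genes are copies of one another and several gave more signal in the same RNAs. RefSeq sequences of GRCm38.p6, 250 bases before each start, were matched for 11 of 14 symbols looked for, 10 of them in the cluster and the other Cst3. The 120 bases before the start are printed for Stfa1, Stfa2, Stfa3, Cstdc5 (BC100530) and Csta1 (Csta). Capitals mark the longest run shared by the windows of Stfa1, Stfa2, Stfa3 and Cstdc5, chosen after the sequences were seen.
Stfa1 (chr16:36277028-36277147, plus strand): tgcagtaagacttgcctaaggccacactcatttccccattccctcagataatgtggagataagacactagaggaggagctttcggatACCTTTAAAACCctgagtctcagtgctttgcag
Stfa2 (chr16:36408364-36408483, minus strand): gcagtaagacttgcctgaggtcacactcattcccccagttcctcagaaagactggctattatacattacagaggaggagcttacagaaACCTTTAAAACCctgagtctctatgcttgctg
Stfa3 (chr16:36455393-36455512, minus strand): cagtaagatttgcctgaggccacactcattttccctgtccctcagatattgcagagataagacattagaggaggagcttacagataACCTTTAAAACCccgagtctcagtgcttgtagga
Cstdc5 (chr16:36367571-36367690, minus strand): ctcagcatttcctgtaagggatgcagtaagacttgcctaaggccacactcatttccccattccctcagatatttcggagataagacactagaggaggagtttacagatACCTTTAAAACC
Csta1 (chr16:36131190-36131309, minus strand): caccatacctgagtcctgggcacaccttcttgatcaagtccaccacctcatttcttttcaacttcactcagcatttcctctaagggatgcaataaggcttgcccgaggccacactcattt

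The run ACCTTTAAAACC, searched on both strands, began 33 bases before the start of Stfa1, 32 before Stfa2, 34 before Stfa3 and 12 before Cstdc5. It was not in the 250 bases before the annotated start of Csta1. That window ends with ggccacactcattt, letters that precede the run in Stfa1, Stfa3 and Cstdc5. Bases past the annotated start were not searched, so whether Csta1 holds the run there was not tested. The run was held by promoters of 11 genes, 0.0335% of the 32851 promoters of this length. Of the 11 genes, 8 were of the stefin cluster list. The other 3 were Gm7260, Cdc42ep4 and Gm39539. Holders included Stfa2l1, Cstdc3 and Cstdc4, whose probes were at background, so the run was common to detected and undetected copies. The Sox-type motif AACAAT, searched on both strands, was absent from these windows of all 10 cluster genes and of Cst3, and was present in 9.42% of all promoters. TGANTCA, the AP-1 motif, was found before 1 of the starts of Cstdc3 and in 6.75% of all promoters.

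Other cystatin-type genes gave little signal. Of 16 genes listed by name as relatives of the family, 13 had brightest probes not well above background in any RNA, among them the secreted cystatins of the testis and epididymis (Cst8, Cst11, Cst12) and the leukocyte cystatin Cst7. Fetub, a fetuin with cystatin domains, read 158 and 199 in the Sox9-expressing RNAs and 174 and 176 in the deleted RNAs. Camp, a neutrophil cathelicidin with a cystatin-like propeptide, was well above background only in the deleted RNAs, at 105.8 and 104.8 against 94.2 and 96.9. Cstad was listed by its symbol but is no cystatin. Its mean log2 ratio was 0.96 ± 0.34 (SD, n = 2 arrays; limma adjusted p = 0.131), so it did not pass the test.

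The enzymes that the family inhibits were examined next, from a list of 21 papain-type protease, related and legumain genes. Those of the mouse placental cathepsin family (Cts3, Cts6, Cts7, Cts8, Ctsj, Ctsm, Ctsq and Ctsr), 8 in all, were not well above background in any RNA. Of the 13 tested, none passed limma's test at an adjusted p of 0.05, which 0.00880% of all tested probes passed. At an unadjusted limma p under 0.05, 2 were higher and 1 was lower in the Sox9-expressing RNA, beside 17.6% of tested probes. The methods' t-test gave 1 at the unadjusted level (Ctsl) and 0 after adjustment. The median mean log2 ratio of the 13 was -0.03, against 0.00 over all tested genes.

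Ctsc, cathepsin C, which activates serine proteases of leukocyte granules, had the highest mean of the list. It read 3449 and 3820 in the Sox9-expressing RNAs and 2220 and 1993 in the deleted RNAs, without overlap. Its mean log2 ratio was 0.79 ± 0.21 (SD, n = 2 arrays), with an adjusted p of 0.118 by limma. Ctsw, a cathepsin of cytotoxic lymphocytes, was dim and had a mean of 0.28 ± 0.12 (SD, n = 2 arrays; limma adjusted p = 0.247). Ctsh, an aminopeptidase of the lysosome, had a mean of -0.34 ± 0.11 (SD, n = 2 arrays; limma adjusted p = 0.196).

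The lysosomal enzymes Ctsb and Ctsl had log2 ratios closer to 0 than those of Stfa1 and the first Csta probe. Ctsb read 9574 and 10082 in the Sox9-expressing RNAs and 11441 and 11035 in the deleted RNAs, and Ctsl had a mean log2 ratio of -0.13 ± 0.01 (SD, n = 2 arrays). For Ctsk and Ctss, cathepsins of osteoclasts and of antigen-presenting cells, the arrays differed. Ctsk had log2 ratios of -1.19 on the genotype array and -0.13 on the treatment array, and Ctss had -0.62 and -0.09. Ctsk read 1354 in wild-type cells with TAM and between 2626 and 3088 in the 3 ER-Sox9flox/flox RNAs, so its low value lay in the wild-type RNA. Lgmn, legumain, read 1173 and 1365 in the Sox9-expressing RNAs and 1353 and 1229 in the deleted RNAs, which overlapped.

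**Figure D3:**
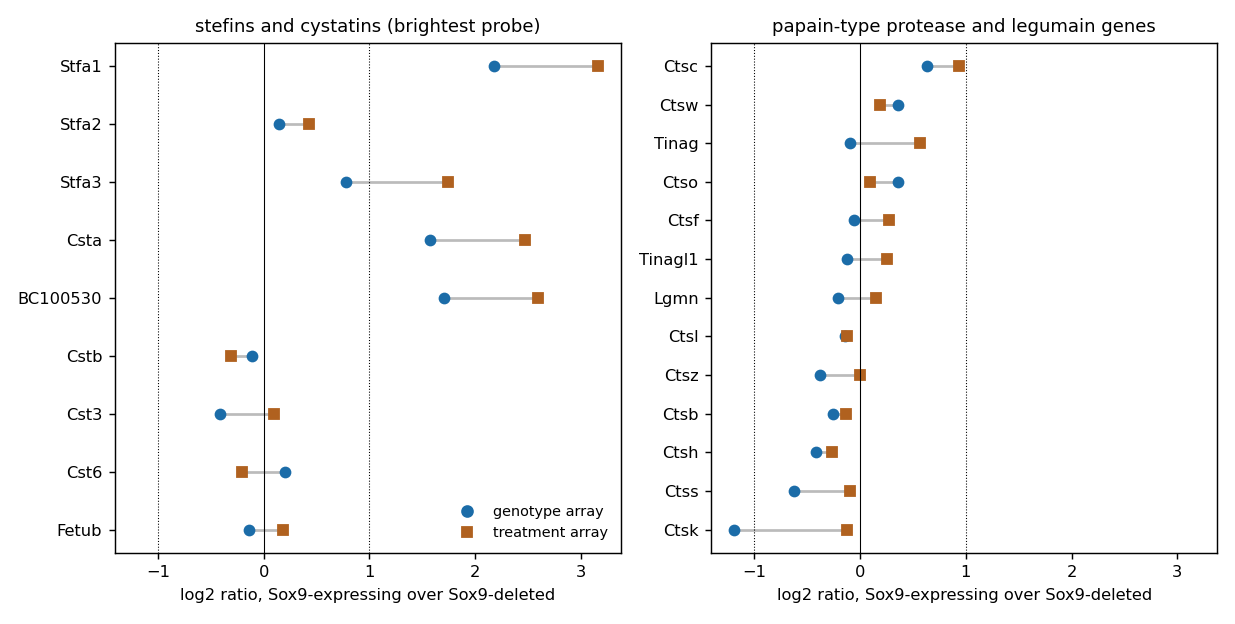
Log2 ratio (horizontal, Sox9-expressing over Sox9-deleted RNA) of stefin and cystatin genes (left) and of the 13 tested protease genes (right), with a circle for the genotype array and a square for the treatment array; dotted lines mark 2-fold. Stfa1, Csta and BC100530 exceed 2-fold on both arrays, while no protease gene does.

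Because stefins of the mouse are also neutrophil products, genes of neutrophils and macrophages were read on the same arrays. Of 11 neutrophil genes on the array, 6 were not well above background in any RNA, among them the granule and receptor genes Mpo, Ela2, Csf3r, Il8rb, Ngp and Retnlg. S100a8, which keratinocytes express as well, was lower in the Sox9-expressing RNA, with log2 ratios of -0.70 and -0.87, and S100a9 with -1.95 and -0.36. None of the 5 tested neutrophil genes was brighter in both Sox9-expressing RNAs, beside 26.9% of tested probes. Of these 5, Camp and Mmp8 passed the filter on dim probes through the Sox9-deleted RNAs alone, so their direction is no support. Ltf, lactoferrin, read 1879 with vehicle and between 509 and 922 in the other RNAs. Summed over the 11 genes, brightness was 1554 and 3184 in the Sox9-expressing RNAs and 2591 and 2238 in the deleted RNAs. The defining leukocyte genes Ptprc, Itgam and Emr1 were not well above background in any RNA. Cd68, Cd14, Lyz2 and Csf1r of the same list were well above background in all 4 RNAs. On the genotype and treatment arrays the log2 ratios were -0.69 and -0.77 for Cd68 and -1.04 and -0.05 for Cd14. Lyz2 had -0.90 and -0.15, and Csf1r had 0.03 and -0.12. The 7 macrophage and leukocyte genes summed to 3666 and 6393 in the Sox9-expressing RNAs and to 6703 and 7047 in the deleted RNAs. Both sums add readings of probes whose heights are not comparable, including genes at background, so neither measures an amount of leukocyte RNA. The part of leukocyte RNA in the stefin values was not tested.

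Genes of the keratinocyte layers had log2 ratios on both sides of 0. The basal genes Krt5, Krt14, Krt15 and Trp63 were all more than 2-fold brighter on both arrays where Sox9 was expressed, with mean log2 ratios from 1.07 to 2.02. Of 6 suprabasal or cornified genes, 5 were tested, and Krt10, an early suprabasal keratin, had log2 ratios of 1.78 and 2.14. Lor, loricrin of the cornified envelope, had 1.41 and 1.09. Ivl, involucrin of the same envelope, went the other way with -2.52 and -0.91. In limma's test none of these basal or suprabasal genes reached an adjusted p of 0.05. At an unadjusted limma p under 0.05, 4 of 4 basal and 4 of 5 suprabasal genes were higher and 1 suprabasal gene (Ivl) was lower. Of the 15123 tested genes, 1584 were higher and 1372 lower at this level. Krt1, counted among the higher suprabasal genes, passed the filter on dim probes through its Sox9-expressing RNAs alone, so its direction is no support. In a mixed culture fewer cells of a type and less RNA per cell cannot be told apart, and the part of either in the stefin values was not tested.

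**Figure D4:**
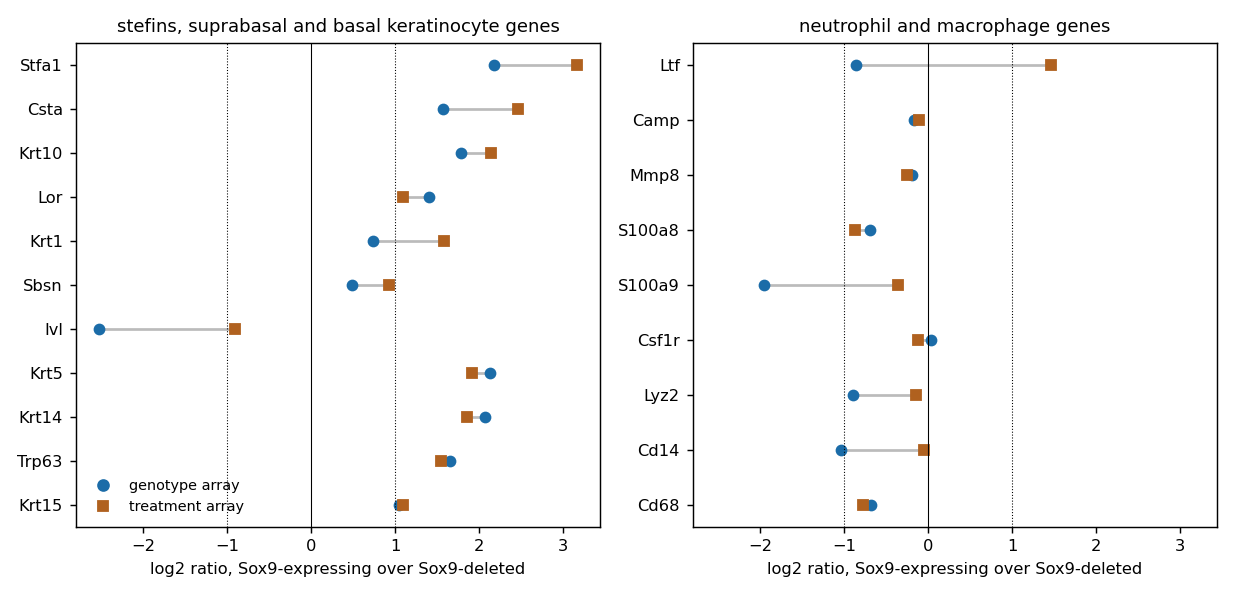
Log2 ratio (horizontal, Sox9-expressing over Sox9-deleted RNA) of Stfa1, Csta and tested suprabasal and basal keratinocyte genes (left) and of tested neutrophil and macrophage genes (right), with a circle for the genotype array and a square for the treatment array; dotted lines mark 2-fold. Krt10, Lor and the basal keratins lie on the side of the stefins, Ivl lies opposite, and S100a8 and S100a9 lie below 0 on both arrays.

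The genes whose pair of log2 ratios came closest to that of Stfa1 were sought among tested genes outside the list, by the straight-line distance over the 2 arrays. The nearest was Dapl1, with log2 ratios of 2.31 and 3.25 and a distance of 0.16. It was followed by Tgfbi, a secreted matrix protein induced by TGF-beta (2.20 and 2.92), and then by BC100530 (1.70 and 2.60), Sox9 itself (2.69 and 2.37) and Duoxa1, the maturation factor of a dual oxidase (1.89 and 2.23).

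For Csta the nearest gene was BC100530, at a distance of 0.18, whose probe overlaps that of Csta. Next came Vwa1, an extracellular matrix protein (1.57 and 2.28, distance 0.19), Krt10, Duoxa1 and Mia1 (1.82 and 2.04). With 2 arrays of 1 dye orientation the likeness rests on 2 values per gene, and the distance ranks genes without a test.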

How the data were processed

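RNA of 4 cultures was hybridized to 2 two-colour Agilent arrays on 1 slide. The deposited scanner files hold, per spot, mean and background intensity and a log10 ratio made by the authors with Feature Extraction 10.5.1.1, with probe positions on mm9. The authors' value table holds 1 log2 ratio per probe and array, Cy5 over Cy3, a scale found by setting it against the scanner's ratio.

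Mean intensities were corrected with normexp (limma 3.58.1, R 4.3.3, offset 50). Of 45018 spots, 1639 controls were left out, as were 126 and 130 spots flagged as outliers. Loess was applied within each array and Aquantile between arrays for the brightness per RNA. Spots of 1 probe were averaged, and the brightest probe stood for a gene in lists. Genes outside the family were tested with limma against 0 and Benjamini-Hochberg adjustment. The arrays leave 1 residual degree of freedom, and p-values measure only the spread between these arrays, which nothing in the labels places in separate experiments. The steps were tested on simulated data.

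Members, gene lists and motifs were chosen with earlier results of these data known. Named were all member probes, the relatives above background, protease genes with an unadjusted limma p under 0.05 or 2-fold on both arrays, defining markers, and the 5 genes nearest to Stfa1 and to Csta. Alternatives were an offset of 10, no background correction, median centring, the scanner's processed signals, the authors' table, stricter or no filter on dim probes, all probes of a gene, the methods' t-test and each array alone. Promoters came from RefSeq (GRCm38.p6).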

Additional observations from a re-analysis of the deposited data

How the results depend on the processing

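The number of the 7 genes at least 2-fold higher on both arrays was 2. It was 4 with the scanner's processed signals, which added Stfa2 and Stfa3, and 1 with the mean over all probes, which removed Csta. On single arrays it was 2 to 3. Stfa1, Stfa2, Stfa3 and Csta were above 0 in all 8 alternatives each, over 1.43 to 2.40 for Csta, 2.67 to 3.10 for Stfa1, 0.27 to 2.88 for Stfa2 and 1.26 to 2.92 for Stfa3 with both arrays kept. Median centring left tested probes at a median of 0.02 and 0.38, and relative to that Cstb was 0.03, Cst3 0.06 and Cst6 0.11. On the same footing Stfa2 was 0.07, no farther from 0 than Cst6, while Stfa1 was 2.75, Csta 2.20 and Stfa3 1.21.

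Over all probes, 95 were at least 2-fold on both arrays. That count was 148 without background correction, 600 with processed signals and 147 in the authors' table, and 298 to 382 on 1 array alone. By limma 2 probes passed. That count was 0 with an offset of 10, without background correction, with processed signals and by the methods' t-test, 522 with median centring, 68 in the authors' table and 21 without a filter on dim probes. At an unadjusted p under 0.05, limma gave 3990 and the methods' t-test 1930. Protease genes at an unadjusted limma p under 0.05 fell from 3 to 1 with median centring and by the methods' t-test, and their median log2 ratio went from -0.03 to 0.35 with median centring and from -0.14 to 0.09 on single arrays. The cause was not tested. No fit over 1 array was possible for the limma counts, because 1 array leaves no residual degrees of freedom. No paired analysis was possible because the arrays form 1 group of ratios. Dim probes (Stfa2, Stfa3) depend most on the background, and 2 arrays limit all precision.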
